A study of Mus musculus with 6 samples.

Results

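The aminoacyl-tRNA synthetases of mouse sciatic nerve were compared between control and *Adar1* mutant animals at postnatal day 4 (P4). The members are the cytosolic and mitochondrial enzymes known by name, listed by what they encode. Of the 37 enzymes named, 36 were found among the 59485 genes of the deposited table, and *Mars2* was not analysed here. They comprise 19 cytosolic enzymes, 2 that serve both compartments from 1 gene (*Gars* and *Kars*) and 15 mitochondrial enzymes.

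Each of the 6 libraries holds poly-A RNA from the sciatic nerves of 1 animal, with 3 control and 3 mutant animals. The mutants are HtPA-Cre;*Adar1* fl/fl;R26R. In these, a Cre driven by the human tissue plasminogen activator promoter is active in neural crest cells, from which Schwann cells derive, so nerve cells of other origins are not targeted. R26R is a fluorescent tracer allele that both genotypes carry. Controls are labelled wild-type, and by the study's methods such animals have R26R and 1 or both *Adar1* alleles floxed (fl/+ or fl/fl) but no Cre.

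A synthetase joins 1 amino acid to its matching tRNAs, the step at which the genetic code is read into amino acids. The cytosol and the mitochondria have separate sets of these enzymes, nearly all of them encoded by separate nuclear genes. Many cytosolic synthetase genes are known targets of ATF4, the transcription factor of the integrated stress response, and variants in several of them cause Charcot-Marie-Tooth neuropathy or hypomyelination in humans.

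Reads on genes ranged from 50938349 to 78250094 per library. *Adar*, the targeted gene, went against its label: its normalised read counts were 1602, 2066 and 1133 in the control libraries and 11768, 9311 and 9773 in the mutant libraries (log2 fold change 2.72, SE 0.20, limma adjusted p = 4.1e-05). Groups are named from here on by their labels, as control-labelled or mutant-labelled, and each direction below rests on those labels. Across genes, the correlation of the log2 values was 0.941 to 0.951 within genotypes and 0.855 to 0.884 between them. Summed marker counts are given as the range over the control-labelled libraries, then over the mutant-labelled ones, and the number of markers called stands beside 19% higher and 16% lower among all tested genes. Schwann cell markers were present in every library, but 9 of 10 fell, from a summed count of 2243530 to 2722140 down to 109797 to 422379. Of 10 fibroblast markers, 3 collagen genes fell and 7 were not called (2504660 to 2912270, then 1037650 to 1507760, summed over the 10), and erythroid markers fell for 7 of 9 (55105 to 77159, then 5172 to 15750.0). Skeletal muscle markers rose for 8 of 10 (7324 to 35519, then 46464 to 336811), endothelial markers for 4 of 10 (19837 to 29066, then 29901 to 39231) and T or NK cell markers for 4 of the 7 tested of 9 (112 to 230, then 373 to 558). Macrophage markers split, 4 higher and 3 lower of 10 (17199 to 22093, then 16227 to 19191), and none of the 10 adipocyte markers was called (7972 to 15532, then 6112 to 32427). No marker of these lists was at 0 in all libraries, and the part of the cell makeup in the results below was not tested. From bulk nerve counts alone, fewer cells of a type and less RNA per cell cannot be told apart. For Schwann cells, the study's electron microscopy at P4 found similar cell numbers in mutants and controls.

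The cytosolic synthetases rose almost throughout, while most mitochondrial ones were not called. Of the 19 cytosolic enzymes, 17 rose, 2 fell (*Qars* and *Tarsl2*) and none was uncalled, with a median log2 fold change of 0.93 (1.91-fold). Both dual enzymes rose. Of the 15 mitochondrial enzymes, 4 rose, 1 fell and 10 were not called, with a median of 0.02. A gene was called at a limma adjusted p at or under 0.05 over the 25802 genes tested, of which 35.0% were called, 19% as higher and 16% as lower, with a median log2 fold change of 0.03. All 36 enzymes were among the genes tested. For the 36 together this gave 23 higher and 3 lower.

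**Figure D1:**
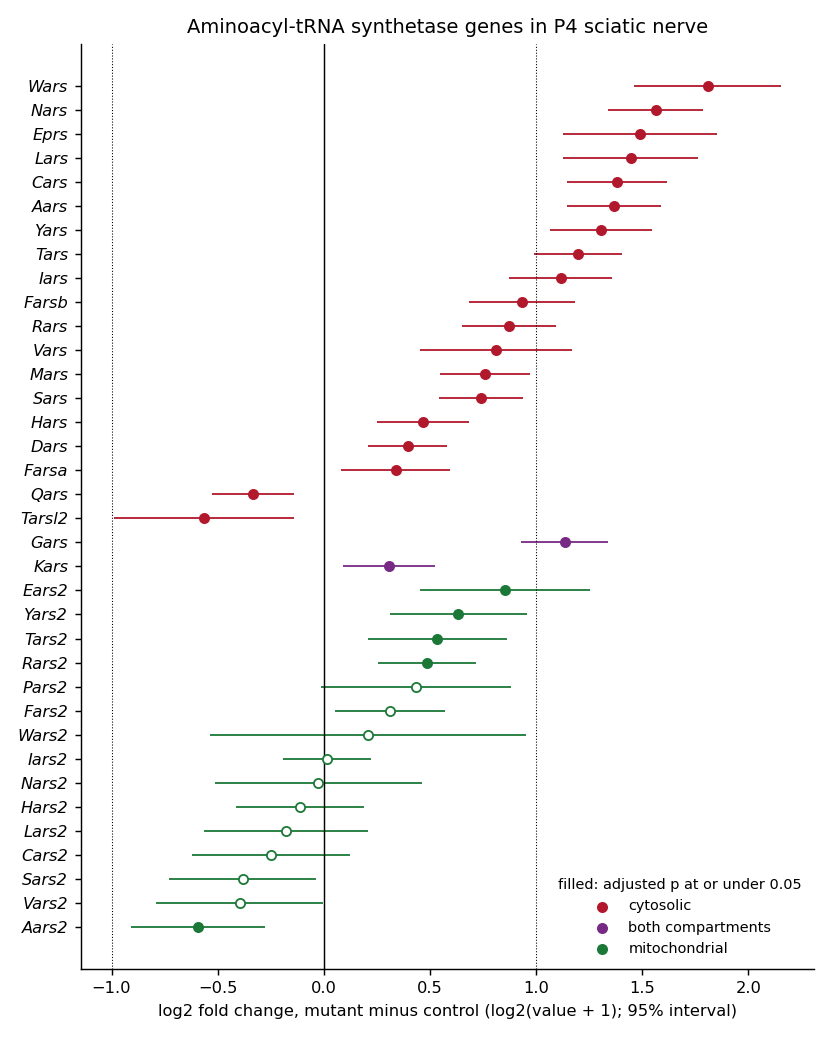
Each row is 1 of the 36 genes, grouped by compartment, and the x axis is the log2 fold change (mutant-labelled minus control-labelled) with its 95% confidence interval as a bar. Filled points have an adjusted p at or under 0.05, dotted lines mark a 2-fold change, and the cytosolic enzymes reach from -0.56 to 1.81 and the mitochondrial ones from -0.59 to 0.85.

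The changes of at least 2-fold were cytosolic or dual. Past the study's limit of an unadjusted p at or under 0.05 and at least a 2-fold change were 9 cytosolic enzymes and the dual enzyme *Gars*, all higher, and no mitochondrial enzyme, against 24.2% of the tested genes past it, 13.9% upward and 10.4% downward. The 3 values of a genotype lay wholly above those of the other for 17 cytosolic enzymes and wholly below for 2, so that no cytosolic enzyme overlapped between genotypes. Among the mitochondrial enzymes 5 lay above, 2 below and 8 overlapped. Over all tested genes, 25.9% lay above and 23.3% below, 49.2% together.

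The promoters of the members are shown because 5 of the 10 enzymes past the 2-fold limit carry the C/EBP-ATF response element, the sequence that ATF4 binds with a C/EBP partner. It was searched as TGATGNAA on either strand (TTNCATCA on the other) in RefSeq promoter windows of GRCm38.p6, which span each annotated start. A window was found for 27 of the 36 members, and none was used for *Cars*, *Hars*, *Hars2*, *Lars*, *Nars*, *Pars2*, *Rars*, *Vars* and *Wars*. The element was present for 4.51% of the 27025 genes with a window. Each stretch below is 30 bases, read 5′ to 3′ along the gene's own strand, and the capitals mark the element.
*Aars*, plus strand, chr8:111033840-111033869: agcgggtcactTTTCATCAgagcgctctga
*Gars*, plus strand, chr6:55037960-55037989: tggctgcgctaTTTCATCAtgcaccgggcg
*Iars*, plus strand, chr13:49682126-49682155: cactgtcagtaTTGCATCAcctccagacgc
*Tars*, minus strand, chr15:11399655-11399684: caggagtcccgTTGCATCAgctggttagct
*Yars*, plus strand, chr4:129189895-129189924: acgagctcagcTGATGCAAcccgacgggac

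The first base of the elements shown was at +10 relative to the start in *Aars*, at -30 in *Gars*, +8 in *Iars*, -15 in *Tars* and +4 in *Yars*, with the first transcribed base as +1. Among the 27 members with a window, these 5 were the only ones with the element. That makes 5 of the 14 cytosolic or dual enzymes with a window (35.7%) and 0 of the 13 mitochondrial ones. *Eprs* was the only enzyme past the 2-fold limit that had a window and no such element in it. The E-box CACGTG, which reads the same on both strands and is bound by MYC among others, was present for 4 of the 14 cytosolic or dual enzymes (*Aars*, *Farsb*, *Iars* and *Tars*) and for 1 of the 13 mitochondrial ones (*Ears2*), against 8.09% of genes. The interferon-stimulated response element, searched on both strands as GAAA, any 2 bases and GAAA again, was present for 1 of the 14 cytosolic or dual enzymes (*Qars*) and 0 of the 13 mitochondrial ones, against 3.99% of genes. *Wars*, *Nars*, *Lars* and *Cars*, all past the 2-fold limit, had no window, so none of these motifs was searched in them. A match of letters is a description of the window and was not tested as a binding site.

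*Wars*, which charges tryptophan and is known to be induced by interferon gamma, had the largest change of the 36. Its counts were 3741, 4426 and 4828 in the control-labelled libraries and 16634, 12157 and 16959.6 in the mutant-labelled ones, so 4332 ± 549.6 rose to 15250.2 ± 2684 (SD, n = 3 each). The log2 fold change was 1.81 (SE 0.15, adjusted p = 6.75e-05), which is 3.50-fold. The lowest mutant-labelled library stood far above the highest control-labelled one. *Wars* (GSMG0009306) lies at chr12:108860030-108894174 on the minus strand of mm10 and overlaps other annotated genes on both strands.

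*Nars*, the asparagine enzyme, was the next in size. It had 10664, 10883 and 12029.6 counts in the control-labelled and 33046, 30140.0 and 36186 in the mutant-labelled libraries (log2 fold change 1.56, SE 0.10, adjusted p = 1.73e-05). Its counts did not overlap between genotypes. *Eprs*, a fused enzyme that charges both glutamate and proline, went from 5838, 4930.5 and 4881 to 14522, 11728 and 18197 with a log2 fold change of 1.49 (SE 0.16, adjusted p = 0.00023). Its mutant-labelled libraries varied more than those of most members, yet each lay far above every control-labelled one. *Lars*, the leucine enzyme, counted 974, 1111 and 854 against 2643, 2377 and 2977, with a log2 fold change of 1.45 (SE 0.14, adjusted p = 0.000133). Again the genotypes stood apart.

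Another group rose by a similar amount with little spread between animals. *Cars*, for cysteine, had 3691, 3443 and 3676 counts in the control-labelled libraries and 10509, 8480.1 and 9257 in the mutant-labelled ones (log2 fold change 1.38, SE 0.10, adjusted p = 3.84e-05). *Aars*, for alanine, had 10979, 12216 and 12939.5 against 33318, 28961 and 30905 (log2 fold change 1.37, SE 0.10, adjusted p = 3.07e-05). For both enzymes every mutant-labelled library was above every control-labelled one, and an element of *Aars* is printed above. *Yars*, the tyrosine enzyme, rose from 2772, 2866 and 3242 to 7937, 6685 and 7321 (log2 fold change 1.30, SE 0.11, adjusted p = 5.65e-05). The threonine enzyme *Tars* rose from 6173, 6581 and 6385 to 15399.6, 13293 and 15257 (log2 fold change 1.20, SE 0.09, adjusted p = 4.24e-05). *Iars*, for isoleucine, rose from 5849, 6026 and 5339 to 13090.2, 10913 and 13412 (log2 fold change 1.12, SE 0.11, adjusted p = 0.000128). None of these overlapped between genotypes, and an element of *Yars*, *Tars* and *Iars* is printed above as well.

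The glycine enzyme *Gars* works in both the cytosol and the mitochondria and was the only dual enzyme past the 2-fold limit. It had 10472, 11658 and 11824 counts in the control-labelled libraries and 25727, 23189 and 25597 in the mutant-labelled ones (log2 fold change 1.13, SE 0.09, adjusted p = 5.13e-05). *Kars*, the lysine enzyme of both compartments, had 9401, 10646 and 10743, then 13549, 11829 and 12709.6 (log2 fold change 0.31, SE 0.09, adjusted p = 0.0354). The genotypes did not overlap for either gene, but the call of *Kars* was lost in 9 of the 17 alternative fits (11 other settings and 6 that each left out 1 library), 5 of them among the 6 latter, and remained without mutant replicate 2.

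**Figure D2:**
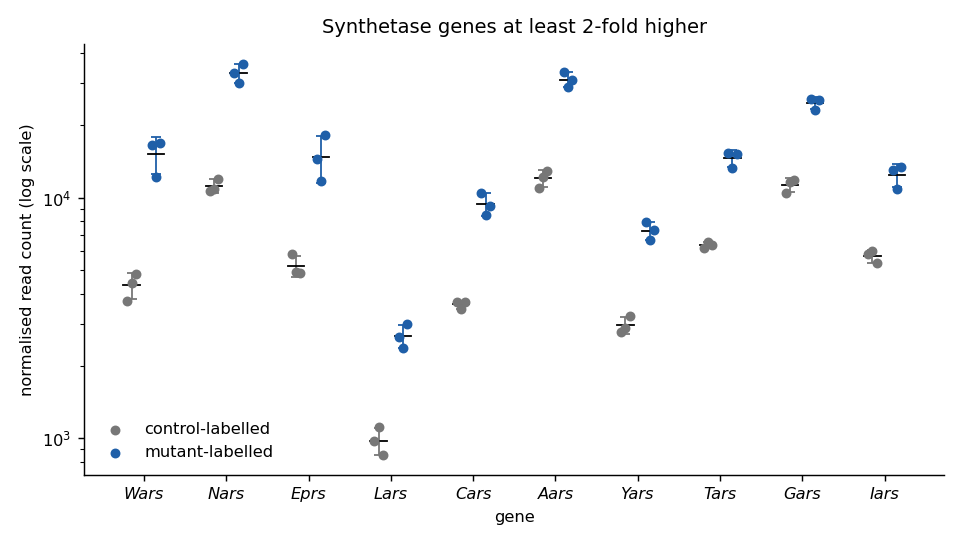
The y axis is the normalised read count (log scale) in each library for the 10 synthetases past the 2-fold limit, as grey (control-labelled) and blue (mutant-labelled) points with the mean as a black line and the SD (n = 3) as bars. For each of the 10, all 3 mutant-labelled points lie above all 3 control-labelled ones.

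The other cytosolic enzymes that rose did so by less than 2-fold. *Farsb*, the beta subunit of the phenylalanine enzyme, led them with a log2 fold change of 0.93 (SE 0.11, adjusted p = 0.000359). *Rars* for arginine (0.87), *Vars* for valine (0.81), *Mars* for methionine (0.76), *Sars* for serine (0.74), *Hars* for histidine (0.47) and *Dars* for aspartate (0.39) followed, with adjusted p-values between 0.000289 and 0.0065. *Mars* shares its locus with *Ddit3*, a gene on the opposite strand whose counts went from 113, 136 and 133 to 1508, 1426 and 1906. The cDNA was oriented, but whether the counting used strand is not given in the sources used here. Without use of strand, reads of the 2 genes could not be told apart where they overlap. *Farsa*, the alpha subunit of the phenylalanine enzyme, had 1241, 1466 and 1322, then 1768, 1620.0 and 1700.2 counts (log2 fold change 0.34, SE 0.11, adjusted p = 0.0463), and its call was lost in 10 of the 17 alternatives, including each of the 6 fits without 1 library.

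Both subunits of the phenylalanine enzyme are needed for activity, so their ratio was followed. The log2 ratio of *Farsb* to *Farsa* was 1.27, 1.01 and 1.32 in the control-labelled libraries and 1.71, 1.72 and 1.96 in the mutant-labelled ones, higher in all 3 of the latter by 0.60 on average. An exact two-sided permutation test gave p = 0.1, the smallest that 3 against 3 animals allow.

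The 2 cytosolic enzymes that fell were *Qars* and *Tarsl2*. *Qars* charges glutamine, belongs to the multi-synthetase complex and has no mitochondrial counterpart. Its counts were 6804, 7144 and 7105 in the control-labelled libraries and 5666, 5237 and 5811 in the mutant-labelled ones, so it fell by 0.33 on the log2 scale (SE 0.09, adjusted p = 0.0166). The groups did not overlap. The call was lost in 5 of the 17 alternatives: without control replicate 2 (adjusted p = 0.0704) or control replicate 3 (adjusted p = 0.059), after scaling every library to an equal total (0.146), with eBayes without trend (0.0893) and with the replicate number as a block (0.0551). *Tarsl2*, a second cytosolic threonine enzyme, had 622, 805 and 645, then 549, 385 and 472 counts and fell by 0.56 (SE 0.19, adjusted p = 0.0447). Its call was lost in 11 of the 17 alternatives, among them edgeR (adjusted p = 0.0587) and 5 of the 6 fits without 1 library, and it remained without mutant replicate 1. The 2 threonine enzymes thus moved in opposite directions, and the log2 ratio of *Tars* to *Tarsl2* went from 3.31, 3.03 and 3.31 to 4.81, 5.11 and 5.01.

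Mutant replicate 2 had the smallest response of the mutant-labelled libraries. It had the lowest of the 3 mutant values for 17 of the 19 cytosolic or dual enzymes that rose. Relative to the control mean of each gene, the median log2 level of the 19 cytosolic enzymes was 1.04, 0.84 and 1.10 in the mutant-labelled libraries and -0.05, 0.02 and 0.06 in the control-labelled ones. Skeletal muscle markers were also lowest in that library among the mutants. Adipocyte markers other than *Cidea* were highest in it, with *Adipoq* at 4955 against 17 and 14 in the other mutant-labelled libraries. The part of either marker list in this order was not tested. For the mitochondrial enzymes the same median was 0.05, -0.09 and 0.20 in the mutant-labelled and -0.07, 0.05 and 0.03 in the control-labelled libraries.

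**Figure D3:**
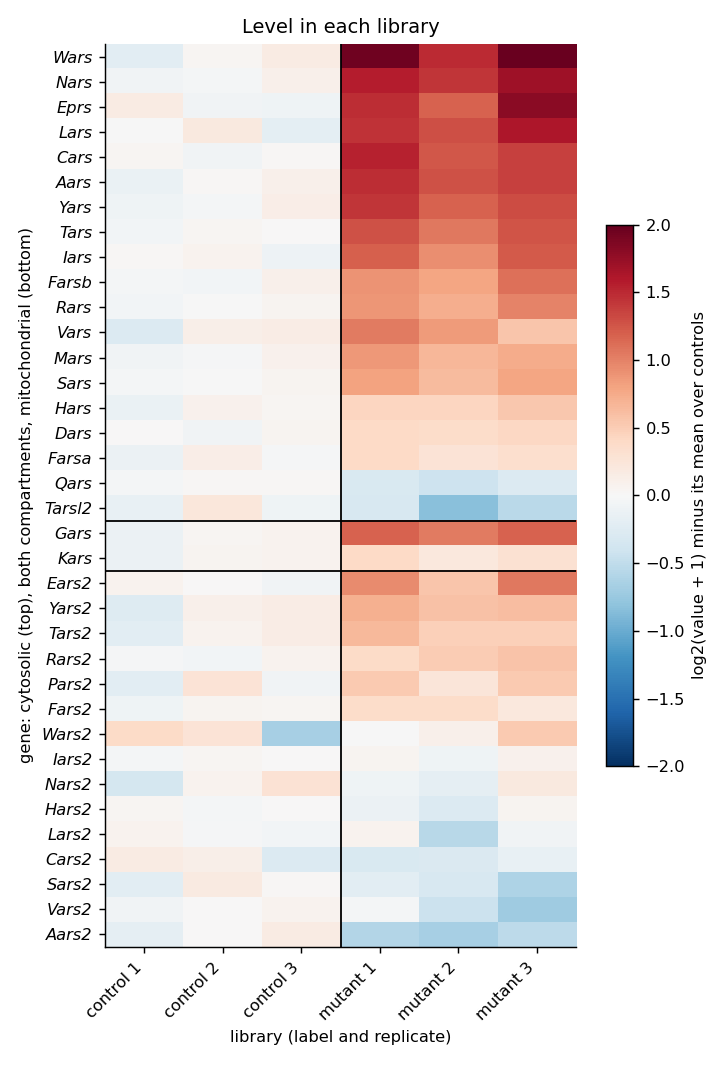
The colour of each cell is the log2 level of 1 gene (row) in 1 of the 6 libraries (column) minus its mean over the control-labelled libraries, red for higher and blue for lower. Lines divide the compartments and the genotypes, and the upper right block, the cytosolic enzymes in the mutant-labelled libraries, is red except for *Qars* and *Tarsl2*.

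As a share of all reads on genes, the 19 cytosolic enzymes took 0.158%, 0.157% and 0.163% in the control-labelled libraries and 0.391%, 0.339% and 0.397% in the mutant-labelled ones. *Gars* and *Kars* together took 0.0323%, 0.0344% and 0.0350%, then 0.0690%, 0.0614% and 0.0679%. The 15 mitochondrial enzymes took 0.0264%, 0.0270% and 0.0269%, then 0.0328%, 0.0299% and 0.0324%. Shares also move with the reads that other genes lose, and the summed Schwann cell markers above fell severalfold. On this scale all 3 groups were higher in every mutant-labelled library, by far less for the mitochondrial enzymes.

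The functional groups are described next. Their counts stand beside 19% of all tested genes called higher, 16% lower and 13.9% past the 2-fold limit upward, and beside the 17 of 19 cytosolic and 2 of 2 dual enzymes that rose. Of the 13 cytosolic or dual enzymes commonly listed as ATF4 targets, all 13 rose, 10 past the 2-fold limit, with a median log2 fold change of 1.30 and a range of 0.74 to 1.81. Of the other 8, 6 rose, 2 fell and none passed the 2-fold limit, with a median of 0.37 and a range of -0.56 to 0.93. The ranges overlap: *Farsb* and *Rars*, outside the ATF4 list, rose by more than *Vars*, *Mars* and *Sars* within it. Among the members with a promoter window, 5 of 8 ATF4 targets (62.5%) and 0 of the 6 others carried the element printed above. ATF4 binds this element, and the list was chosen with earlier results of these data known, so list and element are not independent.

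Mammalian cells hold 8 of these gene products in a multi-synthetase complex (*Eprs*, *Lars*, *Iars*, *Rars*, *Mars*, *Dars*, *Kars* and *Qars*). Of these, 7 rose and *Qars* fell, 3 passed the 2-fold limit, and their median log2 fold change was 0.82. The members of 1 complex therefore ranged from -0.33 to 1.49. Outside the complex, 12 of 13 cytosolic or dual enzymes rose and 1 fell, 7 of them past the 2-fold limit, with a median of 1.13. Synthetases also fall into 2 unrelated structural classes. In class I, 8 of 9 cytosolic enzymes rose and 1 fell (median 1.12), and in class II, 10 of 11 cytosolic or dual enzymes rose and 1 fell (median 0.74). *Eprs*, which joins both classes, was counted in neither.

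Enzymes tied to diseases of peripheral nerve and myelin come from the same cytosolic or dual enzymes, of which all but *Qars* and *Tarsl2* rose, so their counts show nothing particular to them. The 6 members listed here for Charcot-Marie-Tooth neuropathy (*Gars*, *Yars*, *Aars*, *Hars*, *Mars* and *Wars*) all rose, 4 past the 2-fold limit, with a median log2 fold change of 1.22. The list may not be complete. The smallest change among these 6 was that of *Hars*, with 4265, 4954 and 4777 counts in the control-labelled and 6256, 6301 and 6784 in the mutant-labelled libraries (log2 fold change 0.47, SE 0.09, adjusted p = 0.00577). The 3 listed here for hypomyelination of the central nervous system (*Dars*, *Eprs* and *Rars*) also rose, with a median of 0.87. Apart from *Eprs*, described above, *Rars* had 4715, 4856 and 5103, then 9059.7, 8107 and 9763 counts, and *Dars* had 6609, 6245 and 6848, then 8617, 8509 and 8763. Neither gene overlapped between genotypes, and the call of *Dars* was lost with a variance estimate without trend.

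Among the mitochondrial enzymes, *Ears2* for glutamate rose most. It had 392, 373 and 355 counts in the control-labelled libraries and 719, 550.0 and 775 in the mutant-labelled ones (log2 fold change 0.85, SE 0.17, adjusted p = 0.00623). *Yars2*, for tyrosine, rose from 726, 929 and 966 to 1413, 1303 and 1324 (log2 fold change 0.63, SE 0.14, adjusted p = 0.00913). Both were higher in every mutant-labelled library. *Tars2*, for threonine, had 594, 721 and 763, then 1075, 962 and 962 counts (log2 fold change 0.53, SE 0.14, adjusted p = 0.02), a call lost in 4 of the 17 alternatives, among them those without control replicate 1 (adjusted p = 0.0507) or mutant replicate 1 (adjusted p = 0.0655). *Rars2*, for arginine, had 1830.0, 1794 and 1958, then 2428, 2634 and 2762 (log2 fold change 0.49, SE 0.10, adjusted p = 0.00676). The genotypes stood apart for both genes.

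*Aars2*, the mitochondrial alanine enzyme, was the only mitochondrial member that fell. Its counts were 907, 1033 and 1152 in the control-labelled libraries and 681, 644 and 717 in the mutant-labelled ones, so it fell by 0.59 on the log2 scale (SE 0.14, adjusted p = 0.0111), while its cytosolic partner *Aars* rose 2.58-fold. Its log2 fold change was the lowest of the 36.

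The 10 mitochondrial enzymes that were not called differ in how closely the data bound them. *Iars2* had a log2 fold change of 0.02 with a 95% interval of -0.19 to 0.22, the narrowest case. *Hars2* had -0.11 (-0.42 to 0.19), *Lars2* -0.18 (-0.57 to 0.21), *Cars2* -0.25 (-0.62 to 0.13) and *Nars2* -0.03 (-0.51 to 0.46). For each of these 5, the interval excludes a 2-fold change in either direction. The same holds for *Fars2* at 0.31 (0.05 to 0.57), *Pars2* at 0.43 (-0.01 to 0.88), *Sars2* at -0.38 (-0.73 to -0.03), *Vars2* at -0.40 (-0.79 to -0.00) and *Wars2* at 0.21 (-0.53 to 0.95). *Fars2* was higher and *Sars2* lower in every mutant-labelled library, although their adjusted p-values were 0.0629 and 0.0842. *Vars2* was called lower without mutant replicate 1, at -0.57 (adjusted p = 0.0244). The smallest number of reads in any library was 93 for *Wars2*, 232 for *Pars2* and 278 for *Nars2*, so these 3 rest on the fewest reads with *Ears2* at 280.

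To compare the compartments amino acid by amino acid, the log2 ratio of the cytosolic to the mitochondrial enzyme was taken in each library. Of 17 such pairs, the ratio was higher in all 3 mutant-labelled libraries for 15, lower for 1 and overlapping for 1. These ratios reuse the cytosolic values, which lay wholly above for 17 of 19 enzymes already. No share over ratios of other genes was taken. The largest shift was that of *Aars* to *Aars2*, which went from 3.60, 3.56 and 3.49 to 5.61, 5.49 and 5.43, a difference of 1.96 or 3.89-fold. The pairs for cysteine (1.63), leucine (1.62), tryptophan (1.60) and asparagine (1.59) followed. Those for valine (1.21), serine (1.12), isoleucine (1.10) and proline (1.05) also moved by more than 1 on the log2 scale. A ratio within a library barely depends on how the libraries were scaled. Each pair's exact permutation p was 0.1, the smallest possible, except that of *Farsa* to *Fars2*.

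The other upward shifts were below 1 on the log2 scale. Among them were 0.67 for *Yars* to *Yars2*, 0.66 for *Tars* to *Tars2*, 0.63 for *Eprs* to *Ears2* and 0.39 for *Rars* to *Rars2*. The beta subunit *Farsb* shifted by 0.62 against *Fars2*, whereas the alpha subunit *Farsa* shifted by 0.03, with overlapping libraries (exact permutation p = 0.8). *Tarsl2* to *Tars2* was the only ratio that was lower in all mutant-labelled libraries, with a difference of -1.10. Pairs that share a gene, such as those with *Eprs*, *Tars2* or *Fars2*, are not separate observations.

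*Hars* and *Hars2* are neighbours that lie head to head on chromosome 18. *Hars* starts at 36783205 and runs along the minus strand, and *Hars2* starts at 36783209 and runs along the plus strand. *Hars* rose, as given above, whereas *Hars2* had 909, 859 and 888 counts in the control-labelled and 814, 735 and 918 in the mutant-labelled libraries, which overlap. Their log2 ratio was 2.23, 2.53 and 2.43, then 2.94, 3.10 and 2.88, a shift of 0.58. *Hars2* lies within an annotated protocadherin gene on the same strand. Across the members, 8 overlap another annotated gene on the same strand and 16 on the other.

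**Figure D4:**
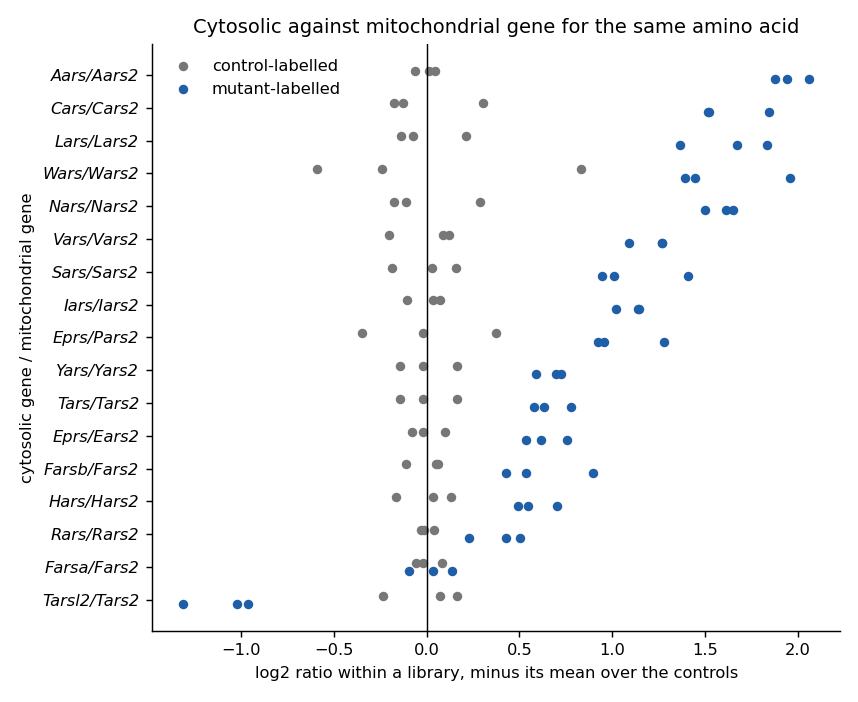
The x axis is the log2 ratio of the cytosolic to the mitochondrial gene in each library, minus its mean over the control-labelled libraries, and each of the 17 rows is a pair with grey (control-labelled) and blue (mutant-labelled) points. The genotypes are apart for 16 pairs, with *Tarsl2* to *Tars2* on the lower side, and overlap for *Farsa* to *Fars2*.

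Genes that work with the synthetases changed in both directions. Of 16 charging partners, 5 rose, 2 fell and 9 were not called, with a median log2 fold change of -0.11, beside 19% higher and 16% lower among all tested genes and a median of 0.03. *Eef1e1*, a scaffold protein of the multi-synthetase complex, rose most, from 1126, 1052 and 896 to 2141, 2107 and 2446 (log2 fold change 1.13, SE 0.13, adjusted p = 0.000324). The other scaffold genes changed by 0.57 (*Aimp2*, adjusted p = 0.0112) and 0.36 (*Aimp1*, adjusted p = 0.0449). *Xpot*, the exporter of tRNA from the nucleus, rose by 0.82 (adjusted p = 0.000774), and *Trnt1*, which adds the CCA end to tRNA, by 0.66 (adjusted p = 0.00587).

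The 2 partners that fell were *Dtd1*, which removes D-amino acids from tRNA, by 0.97 (adjusted p = 0.006), and *Gatc* by 0.50 (adjusted p = 0.0144). *Gatc* is a subunit of the amidotransferase that makes glutaminyl-tRNA in mitochondria from the product of *Ears2*. Its partner subunits *Qrsl1* (-0.17, adjusted p = 0.447) and *Gatb* (-0.23, adjusted p = 0.349) were not called. *Eef1a1*, the elongation factor that carries charged tRNA to the ribosome, had a log2 fold change of -0.27 (adjusted p = 0.0671), and its mitochondrial counterpart *Tufm* had -0.03 (adjusted p = 0.874).

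Most other genes of the ATF4 programme rose. Of 13 such genes, 11 rose, 10 of them past the 2-fold limit, and 2 were not called, with a median log2 fold change of 2.66, beside 19% of all tested genes called higher and 13.9% past the 2-fold limit upward. *Asns*, which makes the asparagine that *Nars* charges, went from 469, 623 and 579 to 18215, 15660.5 and 20548 (log2 fold change 5.02, SE 0.14, adjusted p = 8.72e-07). *Chac1* (7.31), which degrades glutathione, the pseudokinase gene *Trib3* (7.15), the cystine carrier *Slc7a11* (6.05), *Ddit3* (3.64) and *Sesn2* (3.02) had adjusted p-values at or under 0.05 as well. *Atf4* itself, which is controlled largely at translation, rose by 0.85 (adjusted p = 0.000137), less than 2-fold. The serine synthesis genes *Phgdh* (0.23, adjusted p = 0.299) and *Psat1* (-0.02, adjusted p = 0.913) were not called, although they are on the same list.

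**Figure D5:**
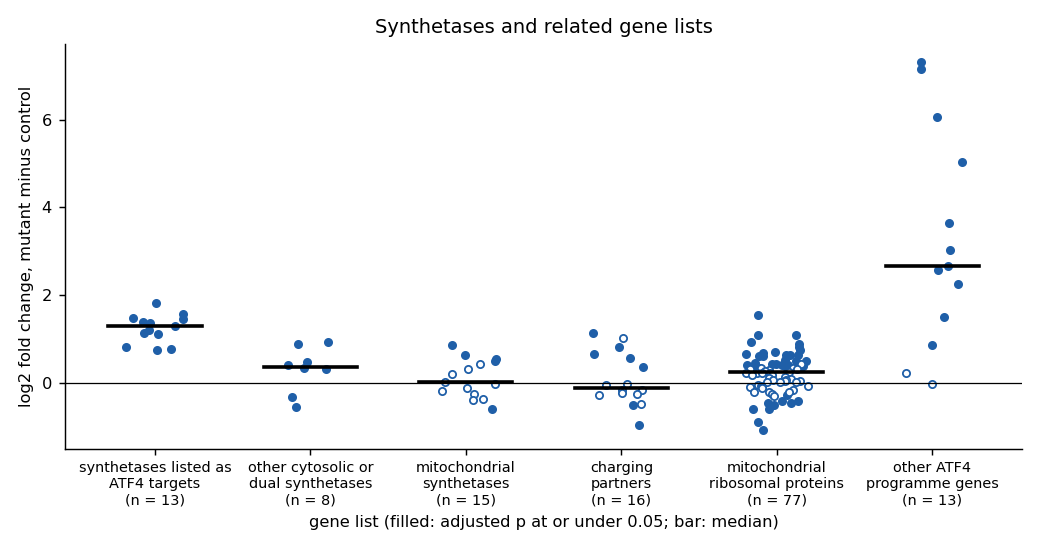
The y axis is the log2 fold change (mutant-labelled minus control-labelled), with 1 point per gene, filled at an adjusted p at or under 0.05, and a bar for the median of each list. The medians are 1.30 for the synthetases listed as ATF4 targets, 0.37 for the other cytosolic or dual ones, 0.02 for the mitochondrial ones, -0.11 for the charging partners, 0.24 for the mitochondrial ribosomal proteins and 2.66 for the other ATF4 programme genes.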

How the data were processed

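The authors aligned paired reads of oriented poly-A cDNA to mm10 with STAR 2.4.0 and counted reads on the constitutive regions of FAST DB genes. The deposited table holds a signal per gene and library, the read count divided by a DESeq2 size factor. Dividing each library by the value of 1 read gave whole numbers (within 0.01) for 100% of the values. Per library, 50938349 to 78250094 reads lay on genes. One value per gene and constitutive regions of unknown length allow no comparison of levels between genes.

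log2(value + 1) was fitted with limma (lmFit, eBayes with trend) for the 25802 genes with a mean of at least 10 in at least 1 genotype, and p-values were adjusted over all of them (Benjamini-Hochberg). A fold change is on this scale. Each library is 1 animal, so p-values measure the spread between these animals. Replicate numbers come from the labels and name different animals: the deviations of same-numbered libraries correlated at -0.06, -0.06 and 0.01, so no pairs were formed. Ratios of enzyme pairs were compared by exact two-sided permutation tests.

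The members and gene lists were chosen with earlier results of these data known. Values in all libraries are given for members past the 2-fold limit and for up to 8 called members per compartment, and up to 6 called genes of a list are named, by largest change; *Farsa*, *Tarsl2*, *Hars2*, the scaffold genes and the partner genes that were not called were named after their values were seen. Alternatives were pseudocounts of 0.1 and 10, other filters, rescaled totals or 75th percentiles, TMM, eBayes without trend, a replicate block, edgeR and DESeq2 on the recovered reads, and each library left out. Some promoter sequence is not reported here. Scripts were tested on simulated data. Fits ran in R (4.3.3) under DESeq2 (1.42.0), edgeR (4.0.16), limma (3.58.1) and data.table (1.17.8), and figures in Python (3.11.15) with pandas (2.3.3), matplotlib (3.10.9) and numpy (2.4.6).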

Additional observations from a re-analysis of the deposited data

How the results depend on the processing

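Of the 26 members called, 20 were called under each of the 11 other settings and the 6 fits without 1 library, and none of the 26 changed direction. The 6 others (*Dars*, *Farsa*, *Kars*, *Qars*, *Tars2* and *Tarsl2*) lost the call at least once. The number called ran from 20 (eBayes without trend) to 27 (minimum mean of 50), with 25 by edgeR and 26 by DESeq2. Leaving out 1 library gave 22 to 24 members called, 10 to 11 past the 2-fold limit, 16 to 18 cytosolic and 4 to 5 mitochondrial calls, medians of 0.90 to 1.004 (cytosolic) and -0.02 to 0.07 (mitochondrial), and 15 pairs higher. Rescaled to the same total, the median of all tested genes was 0.20, the cytosolic median 1.10 and the mitochondrial median 0.18, with no cytosolic enzyme called lower and 13 members past the 2-fold limit. With the replicate number as a block, 21 members, 16 cytosolic and 4 mitochondrial, were called, and the numbers do not pair the animals. Changes of sign were confined to mitochondrial enzymes that were not called. Rescaled to the same total, *Hars2* was at 0.051 and *Nars2* at 0.14. *Iars2* was at -0.052 with the same 75th percentile. Without 1 library, *Iars2* ran from -0.020 to 0.069, *Nars2* from -0.20 to 0.12, *Lars2* from -0.30 to 0.0057 and *Wars2* from -0.12 to 0.40. The causes of these changes were not tested. The fewest reads of a member in any library were 93 for *Wars2*.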

Other observations

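Mitochondrial ribosomal proteins, which use the tRNAs that the mitochondrial synthetases charge, varied in both directions. Of 77 genes of the *Mrpl* and *Mrps* families tested, 31 rose, 10 fell and 36 were not called at a limma adjusted p at or under 0.05, with a median log2 fold change of 0.24 and a range of -1.08 to 1.54. Among all tested genes, 19% were called higher and 16% lower, with a median of 0.03. Past the 2-fold limit were 3 that rose, *Mrpl1* (1.54, adjusted p = 0.000317), *Mrpl32* (1.09, adjusted p = 0.00016) and *Mrpl35* (1.08, adjusted p = 0.0018), and 1 that fell, *Mrpl34* (-1.08, adjusted p = 0.000286), against 13.9% upward and 10.4% downward among all tested genes. All 3 mutant-labelled libraries lay above the control-labelled ones for 40 of the 77 genes and below for 16, against 25.9% above and 23.3% below among all tested genes.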
